A study of Mus musculus with 2 samples.

Results

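The immunoglobulin light chain V segments were the 163 genes, of 32285 in the count tables, whose symbols begin with Igkv or Iglv. Of these, 160 were kappa segments on mouse chromosome 6 and 3 were lambda segments on chromosome 16. A leading segment was assigned to each barcode that had at least 5% of its UMIs (unique molecular identifiers, counted transcripts) on heavy, kappa or lambda immunoglobulin genes and at least 20 UMIs on these segments. This took in 1387 of 10143 barcodes of the library labelled E4BP4 transgenic and 1377 of 9855 barcodes of the wild type library. A single segment led in 1351 and 1342 of them, and the top segments were tied in the other 36 and 35.

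C57BL/6 mice aged 8 weeks gave the cells, which were sorted as live CD45+ cells out of colon lamina propria. All animals drank 2.0% dextran sulfate sodium (DSS), which injures the colon epithelium, for 7 days and plain water for another 7, and were killed on day 14. There was 1 library with the label E4BP4 Transgenic, from mice with macrophage-specific overexpression of E4BP4 (the transcription factor encoded by Nfil3), and 1 wild type library. The labels state neither the number of animals in a library nor the promoter that drives the transgene, and B lineage cells are not its stated target. In the deposited cluster with the highest macrophage marker level, Nfil3 stood at 73.8 CPM (UMIs scaled to an equal total per group of cells) in the library labelled transgenic and 84.4 CPM in the wild type library, a ratio of 0.874 (95% interval 0.724 to 1.06). The genotype is therefore given here as labelled, with TG library and WT library as short names.

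An antibody's light chain is built by joining 1 V segment to 1 J segment in a developing B cell, at either the kappa or the lambda locus, and the joined V segment then marks that cell and its descendants. Kappa rearrangement usually comes first, lambda usually follows when kappa fails, and most B cells display a light chain from a single allele. In mice most antibodies carry kappa, and the lambda locus has few V segments. The colon lamina propria is rich in plasma cells, which secrete mainly IgA and devote much of their RNA to the immunoglobulin genes they have joined.

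The sequences of the most used segments show how far reads can tell them apart. They were taken from the GENCODE vM21 transcripts of GRCm38 (mm10) and run 5′ to 3′ on the coding strand. Igkv1-117 (chr6:68121046-68121827, plus strand) led more of the barcodes that met the rule than any other segment in both libraries, and Igkv1-110 (chr6:68270485-68271267, plus strand) came next in the TG library. Their coding sequences of 359 bases are 97.2% identical. Bases 60 to 359 are shown, and capitals mark the 10 bases at which they differ, all of which lie in this stretch.
Igkv1-117: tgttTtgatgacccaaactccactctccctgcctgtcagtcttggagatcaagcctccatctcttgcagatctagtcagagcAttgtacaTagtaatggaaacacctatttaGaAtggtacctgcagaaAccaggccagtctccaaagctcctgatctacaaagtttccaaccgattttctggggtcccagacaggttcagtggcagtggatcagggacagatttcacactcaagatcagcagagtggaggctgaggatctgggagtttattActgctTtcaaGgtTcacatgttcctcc
Igkv1-110: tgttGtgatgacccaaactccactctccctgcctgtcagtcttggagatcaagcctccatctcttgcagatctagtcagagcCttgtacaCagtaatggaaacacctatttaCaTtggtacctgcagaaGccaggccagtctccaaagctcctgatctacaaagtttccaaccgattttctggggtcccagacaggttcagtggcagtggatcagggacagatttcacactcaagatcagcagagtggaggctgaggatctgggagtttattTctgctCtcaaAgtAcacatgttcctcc

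Iglv1 (chr16:19085017-19085500, minus strand) and Iglv2 (chr16:19260401-19260859, minus strand) are the lambda segments with the closest sequences, 96.9% identical over 351 bases with 11 differences. Bases 52 to 351 are shown, and capitals mark the 8 differences that lie there.
Iglv1: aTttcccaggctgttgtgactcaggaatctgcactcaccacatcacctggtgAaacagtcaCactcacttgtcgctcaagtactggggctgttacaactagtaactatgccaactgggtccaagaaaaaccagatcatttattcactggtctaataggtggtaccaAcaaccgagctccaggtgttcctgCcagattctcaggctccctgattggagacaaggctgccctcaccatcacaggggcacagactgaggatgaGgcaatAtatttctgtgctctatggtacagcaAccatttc
Iglv2: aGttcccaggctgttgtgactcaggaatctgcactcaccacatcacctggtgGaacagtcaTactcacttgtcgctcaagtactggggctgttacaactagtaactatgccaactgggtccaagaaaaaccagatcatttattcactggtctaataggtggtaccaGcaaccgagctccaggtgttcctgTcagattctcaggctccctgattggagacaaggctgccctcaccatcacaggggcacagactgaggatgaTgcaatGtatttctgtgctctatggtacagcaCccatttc

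For kappa segments that led many barcodes of 1 library, the last 60 coding bases are shown, because these enter the third complementarity-determining region, a loop that contacts antigen. Capitals run from the last in-frame cysteine codon to the end of the germline segment. Igkv4-59 (chr6:69438218-69438757), Igkv4-61 (chr6:69416893-69417455), Igkv8-19 (chr6:70340876-70341453) and Igkv10-94 (chr6:68704508-68704978) led more barcodes in the WT library. Igkv10-96 (chr6:68631963-68632442), Igkv2-137 (chr6:67555497-67556216) and Igkv16-104 (chr6:68425575-68426072) led more in the TG library. Igkv2-137 and Igkv16-104 lie on the plus strand and the others on the minus strand.
Igkv10-96: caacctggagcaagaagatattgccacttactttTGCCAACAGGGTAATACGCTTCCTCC
Igkv2-137: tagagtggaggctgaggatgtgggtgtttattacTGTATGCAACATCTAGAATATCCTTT
Igkv16-104: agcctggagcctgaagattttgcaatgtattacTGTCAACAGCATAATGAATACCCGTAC
Igkv4-59: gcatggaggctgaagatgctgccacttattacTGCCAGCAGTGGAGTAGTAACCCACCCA
Igkv4-61: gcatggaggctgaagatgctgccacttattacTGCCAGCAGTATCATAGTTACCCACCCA
Igkv8-19: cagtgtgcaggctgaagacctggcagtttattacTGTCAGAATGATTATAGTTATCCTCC
Igkv10-94: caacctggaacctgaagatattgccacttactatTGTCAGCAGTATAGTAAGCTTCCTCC

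The TG library held 58884332 UMIs, of which 11.2% fell on light chain V segments, and the WT library held 69346746 UMIs, of which 12.5% did. Barcodes that met the rule carried 97.1% and 97.8% of the segment UMIs, with medians of 14489 and 21191 UMIs per barcode in the TG and WT libraries. The deposited metadata, which list the cells the authors clustered, held 204 of the 1387 TG barcodes and 139 of the 1377 WT barcodes. The libraries shared 142 barcode sequences in all and 5 among those that met the rule, of which 1 had the same leading segment in both. With 1 library per genotype there was no replicate check and no test, and the 95% intervals cover counting error only. They take each barcode as an independent draw and are too narrow where barcodes descend from the same B cell.

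All 103 members annotated as functional V genes had UMIs in the TG library and 102 had them in the WT library. The other 60 members are annotated as pseudogenes, of which 21 and 25 had UMIs. Pseudogenes took 0.00933% of segment UMIs in the TG library and 0.0817% in the WT library, and none led a barcode. Igkv4-77 (3530 UMIs), Igkv11-106 (2294 UMIs) and Igkv4-73 (827 UMIs) made up most of this in the WT library, against 87, 6 and 102 UMIs in the TG library. These 3 were singled out after their values were seen. Altogether 76 segments led at least 1 barcode, 66 of them in the TG library and 70 in the WT library. The kappa and lambda J segments had 0 UMIs in both libraries.

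Most barcodes carried a single dominant light chain. The leading segment took a median of 94.1% of a barcode's segment UMIs in the TG library and 95.3% in the WT library. It took at least 80% in 825 TG barcodes (59.5%) and 994 WT barcodes (72.2%), which had medians of 21121 and 23745 UMIs. It took under 50% in 391 TG barcodes (28.2%) and 232 WT barcodes (16.8%), and these were poor in RNA, with medians of 792 and 699 UMIs and only 33 and 32 UMIs on V segments. Igkv1-117 led 53.5% of these low-share barcodes in the TG library and 38.1% in the WT library.

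**Figure D1:**
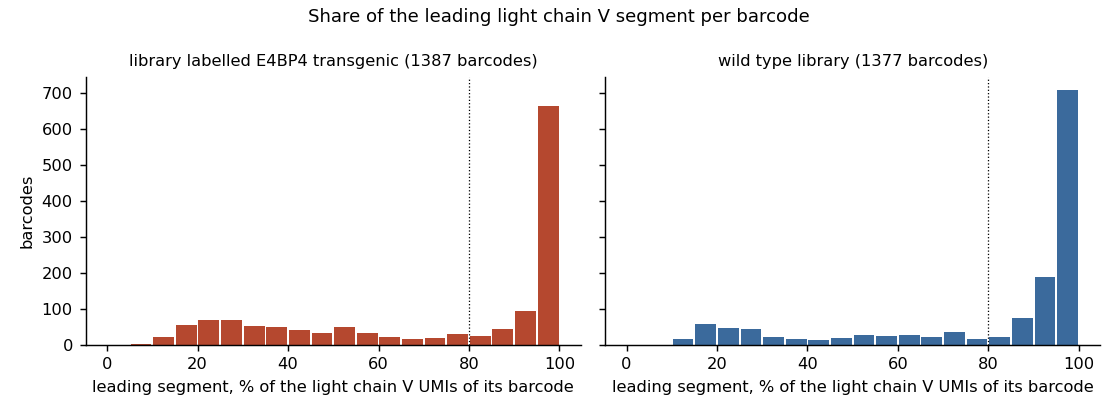
Number of barcodes (vertical axis) by the percent of their light chain V UMIs that the leading segment took (horizontal axis, bins of 5 percentage points), in the TG library (left) and the WT library (right). The dotted line is at 80%, which 825 TG barcodes and 994 WT barcodes reached.

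Igkv1-117 also led in cells that should not make light chains, whose segment UMIs give the level of free RNA. In the 8 deposited clusters without B cell marker levels, cells carried means of 16.6 (TG) and 15.9 (WT) segment UMIs, and among those with at least 3 UMIs on a leader, Igkv1-117 led 43.0% and 42.8%. At the limits of the rule, barcodes with 20 to 21 segment UMIs (34 TG, 26 WT) had median leading shares of 25% and 23.8%, and barcodes with 18 to 19 (21 TG, 25 WT) had 22.2% and 27.8%. Barcodes with 5 to 5.5% immunoglobulin UMIs (78 TG, 55 WT) had medians of 28.4% and 23.8%, and those with 4.5 to 5% (109 TG, 69 WT) had 30% and 28.9%. Shares led by the named segments are therefore given over all barcodes that met the rule and again over those with a leading share of at least 80%, of which 1 TG barcode and 0 WT barcodes were in the metadata.

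These dominated barcodes were plasma cells by their markers. All 10 plasma cell markers listed, among them Jchain, Xbp1 and Mzb1, were detected, at a summed 61021 CPM in the TG library and 63169 CPM in the WT library. Jchain alone stood at 54151 and 54106 CPM over all immunoglobulin-rich barcodes. Barcodes with a leading share under 50% also had all 10 detected, at a lower sum of 38022 (TG) and 34756 (WT) CPM. The leading heavy chain constant gene was Igha, which encodes IgA, in 94.7% of TG barcodes and 97.6% of WT barcodes. B cell markers, a list that includes Cd79a and Cd74, summed to 6138 CPM in the TG library and 5108 CPM in the WT library. T cell, macrophage, epithelial, fibroblast and germinal centre marker lists summed to 106, 338, 153, 49.9 and 88.5 CPM in the TG library and 27.4, 145, 149, 1.88 and 89.3 CPM in the WT library. Neutrophil markers summed to 38.6 CPM in the TG library and 762 CPM in the WT library, and the part of these levels in the usage differences was not tested.

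Kappa led most barcodes in both libraries. Lambda segments led 87 of 1351 TG barcodes, 6.44% (95% interval 5.19 to 7.88), and 92 of 1342 WT barcodes, 6.86% (5.56 to 8.34), a ratio of 0.939 (0.693 to 1.27). With a leading share of at least 80%, lambda led 7.39% of TG barcodes (5.70 to 9.40) and 5.94% of WT barcodes (4.55 to 7.59), a ratio of 1.25 (0.856 to 1.81). Both ratio intervals include 1, and the direction turned between the definitions. No difference in lambda use was detectable at this number of barcodes, while counting error alone leaves room for a ratio as low as 0.693 or as high as 1.81.

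Iglv1 carried nearly all lambda use. It led 77 TG barcodes (5.70%) and 86 WT barcodes (6.41%), a ratio of 0.889 (0.645 to 1.22). At a leading share of at least 80% it led 53 (6.42%) and 54 (5.43%), a ratio of 1.18 (0.794 to 1.76). Iglv2 led 10 TG barcodes and 5 WT barcodes, and 8 and 4 at the higher share, and Iglv3, the most divergent of the 3 in sequence, led 0 TG barcodes and 1 WT barcode. The lambda share among IgA-led barcodes with a leading share of at least 80% was 7.55% (59 of 781) in the TG library and 5.98% (58 of 970) in the WT library.

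The constant genes matched the leaders. In kappa-led barcodes of at least 80% leading share, Igkc, the single kappa constant gene, exceeded the lambda constant genes in 763 of 764 TG barcodes and 933 of 935 WT barcodes. It held 92.6% and 91.4% of their light chain constant UMIs. In Iglv1-led barcodes the main constant gene was Iglc1, at 82.8% of constant UMIs in the TG library (53 barcodes) and 66.6% in the WT library (54 barcodes). In Iglv2-led barcodes it was Iglc2, at 55.1% (8 TG barcodes) and 68.7% (4 WT barcodes), and Igkc made up 41.6% and 20.1%.

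Iglv1 transcripts were also present in barcodes led by kappa. Kappa-led barcodes of at least 80% leading share held a median of 20.5 Iglv1 UMIs in the TG library (quartiles 5 and 56, n = 764) and 78 in the WT library (quartiles 24 and 191, n = 935). At least 10 Iglv1 UMIs were found in 66.0% of these TG barcodes and 87.5% of these WT barcodes, against 0.113% and 0.0819% of cells in clusters without B cell marker levels. Iglv1 had the highest median of any segment that was not the leader in both libraries. Igkv1-117, the segment with most leaders, had a median of 3 UMIs in kappa-led barcodes led by another segment in each library.

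In CPM, kappa-led barcodes held 2521 (TG) and 6402 (WT) Iglv1, and cells without B cell marker levels held 302 and 372. Igkv1-117 ran the other way, at 396 (TG) and 256 (WT) CPM in barcodes it did not lead, against 981 and 796 CPM in those cells. The level differed between leaders. Over the 25 kappa segments with at least 10 such TG barcodes, the median Iglv1 count ran between 3 (Igkv4-72) and 105 (Igkv6-15). Over 23 such segments in the WT library it ran between 27 (Igkv10-94) and 115 (Igkv12-41). As medians of the CPM of single barcodes, the lowest in the TG library were 286 under Igkv9-120, 439 under Igkv3-12 and 453 under Igkv4-72. The highest was 6206 under Igkv6-15. In the WT library these medians ran between 1337 and 6950 CPM. They are not set against the 302 and 372 CPM above, which were summed over all cells of a group. The Iglv1-led barcodes themselves had medians of 6750 UMIs (TG) and 7878 UMIs (WT), and the median Iglv1 share in kappa-led barcodes was 0.510% and 1.42% of segment UMIs. Iglv3 behaved alike at a lower level, with medians of 2 (TG) and 4 (WT) UMIs, and Iglv2 had a median of 0 in both libraries.

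**Figure D2:**
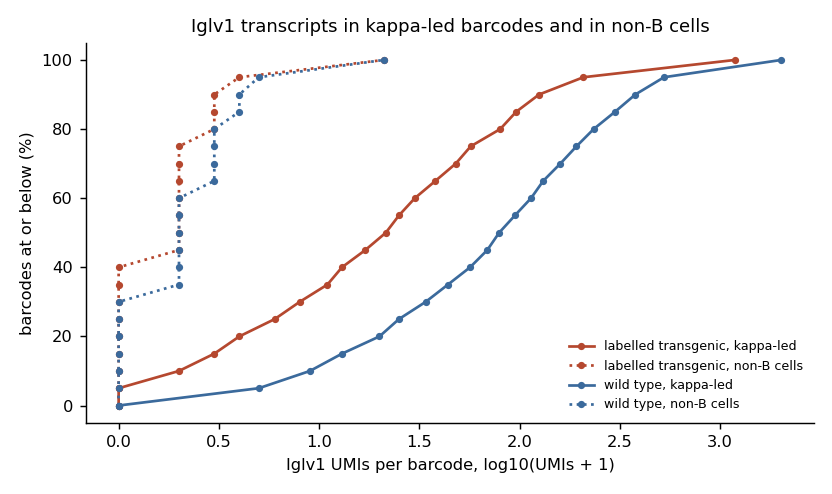
Percent of barcodes (vertical axis) with at most the given number of Iglv1 UMIs (horizontal axis, log10 of UMIs + 1), as points at every 5th percentile. Solid lines are kappa-led barcodes of at least 80% leading share (median 20.5 UMIs in the TG library and 78 in the WT library), and dotted lines are cells of clusters without B cell marker levels (median 1 in both).

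Usage was spread over many segments with a few in front. Igkv1-117 led 359 of 1351 TG barcodes (26.6%, 24.2 to 29.0) and 256 of 1342 WT barcodes (19.1%, 17.0 to 21.3), a ratio of 1.39 (1.18 to 1.64). With a leading share of at least 80% it led 16.2% of TG barcodes and 14.4% of WT barcodes, a ratio of 1.13 (0.885 to 1.44), so the difference was within counting error there.

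Igkv4-59 led 26 TG barcodes (1.92%) and 226 WT barcodes (16.8%), a ratio of 0.114 (0.0731 to 0.172). At a leading share of at least 80% it led 2.18% of TG barcodes and 18.2% of WT barcodes, where it stood first. Igkv1-110 led 177 TG barcodes (13.1%) and 48 WT barcodes (3.58%), a ratio of 3.66 (2.65 to 5.15), and at the higher share 12.1% and 3.52%. These 2 segments differed most in barcode number between the libraries, in opposite directions.

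Of the 31 segments that led at least 20 barcodes over both libraries, 11 (35.5%) were at least 1.5-fold higher in the TG library and 9 (29.0%) at least 1.5-fold lower. With a leading share of at least 80% the numbers were 13 (48.1%) and 8 (29.6%) of 27. Igkv2-137 led 38 TG barcodes and 6 WT barcodes, a ratio of 6.29 (2.64 to 18.2), and at the higher share 28 and 4, a ratio of 8.43 (2.95 to 33.1). Igkv16-104 led 24 and 5 under both definitions, with ratios of 4.77 (1.78 to 16.0) and 5.78 (2.16 to 19.4). Igkv10-96 led 53 TG barcodes and 19 WT barcodes, a ratio of 2.77 (1.61 to 4.96), and at the higher share 40 and 17, a ratio of 2.83 (1.57 to 5.33). A further Igkv1 segment, labelled in the plot of led shares, led 26 and 9, a ratio of 2.87 (1.30 to 6.96), and at the higher share 17 and 7, a ratio of 2.93 (1.15 to 8.35). Igkv6-17 led 46 and 18, a ratio of 2.54 (1.44 to 4.65), and at the higher share 29 and 16, a ratio of 2.18 (1.15 to 4.30). All 5 were higher in the TG library under both definitions. They were chosen by their ratios over all barcodes, and the barcodes at the higher share are a part of that set. The second definition is therefore no separate check.

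Among the segments lower in the TG library, Igkv4-61 led 1 TG barcode and 55 WT barcodes, a ratio of 0.0181 (0.000449 to 0.105), and at the higher share 1 and 53, a ratio of 0.0227 (0.000565 to 0.132). Igkv4-79 led 0 TG barcodes (exact interval up to 0.273%) and 22 WT barcodes (1.64%, 1.03 to 2.47). At the higher share it led 0 TG barcodes (up to 0.446%) and 14 WT barcodes (1.41%, 0.772 to 2.35). The intervals of the libraries did not overlap under either definition, but they take each barcode as an independent draw. Whether these WT barcodes come from related cells cannot be told here. With 3 counts put in place of 0, Igkv4-79 was 7.38-fold lower in the TG library, and 3.87-fold lower at the higher share. The exact upper limits lie above the shares at that floor (0.222% and 0.364%), so these folds are not lower bounds. Igkv4-68 led 3 TG barcodes and 26 WT barcodes, a ratio of 0.115 (0.0222 to 0.374), and at the higher share 2 and 23 (0.105, 0.0120 to 0.424). Igkv8-19 led 9 and 48 (0.186, 0.0803 to 0.384), and at the higher share 5 and 41 (0.147, 0.0453 to 0.372). Igkv8-27 led 7 and 28 (0.248, 0.0916 to 0.582), and at the higher share 4 and 22 (0.219, 0.0549 to 0.645). Igkv10-94 led 15 and 42 (0.355, 0.183 to 0.653), and at the higher share 12 and 40 (0.361, 0.173 to 0.703).

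Igkv9-120 led 27 TG barcodes and 37 WT barcodes, a ratio of 0.725 (0.424 to 1.22), but at the higher share it led 12 and 32, a ratio of 0.452 (0.212 to 0.901), and was lower in the TG library. Igkv4-91 had ratios of 0.822 (0.458 to 1.46) and, at the higher share, 0.954 (0.494 to 1.82), and an Igkv14 segment 0.673 (0.368 to 1.21) and 0.748 (0.391 to 1.39), so neither passed 1.5-fold under either definition. Igkv6-15 led 23 TG barcodes and 14 WT barcodes, a ratio of 1.63 (0.805 to 3.43), and at the higher share 16 and 8, a ratio of 2.41 (0.973 to 6.50), with intervals that include 1. Over subgroups, the families named by the first number of the symbol, Igkv1 members led 31.3% of TG barcodes and 18.8% of WT barcodes with a leading share of at least 80%. Igkv4 members led 10.7% and 36.2%.

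**Figure D3:**
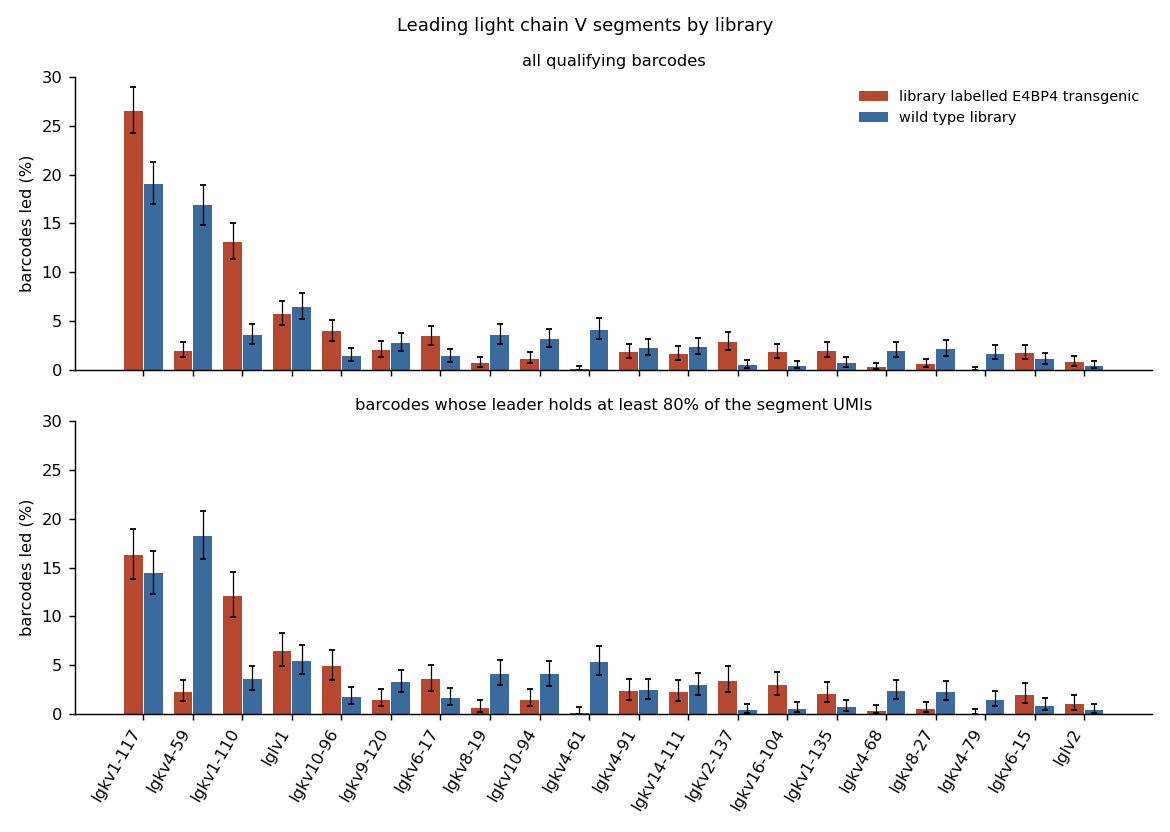
Percent of barcodes led (vertical axes) by 20 segments in the TG library (left bar of each pair) and the WT library (right bar), over all barcodes with a leader (upper panel, 1351 and 1342) and over those with a leading share of at least 80% (lower panel, 825 and 994). Error bars are exact 95% intervals for counting error; Igkv4-59 stands at 1.92% in the TG library and 16.8% in the WT library in the upper panel.

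Concentration was measured with the Simpson index, the percent chance that a pair of barcodes shares its leading segment. Over all barcodes it was 9.94% in the TG library and 7.89% in the WT library, which equals 10.1 and 12.7 equally used segments, a ratio of 1.26. With a leading share of at least 80% it was 5.74% and 6.98%, or 17.4 and 14.3 equally used segments, a ratio of 0.822. The direction thus turned with the RNA-poor barcodes, of which Igkv1-117 led 53.5% in the TG library. At equal numbers of barcodes, 65.9 (TG) and 70 (WT) segments led over all barcodes and 63 and 63.0 at the higher share. The usage that the libraries had in common, summed over segments as the lower of both shares, was 59.9% over all barcodes and 56.7% at the higher share.

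Summed over all immunoglobulin-rich barcodes, 35 of the 99 segments with at least 50 UMIs were at least 2-fold higher in the TG library and 37 at least 2-fold lower. Over all 10670 genes that passed the same minimum, 6.76% were higher and 1.61% lower, 8.37% in all, against 72.7% of the segments. The heavy chain V segments gave 77.8% (39 higher and 38 lower of 99). The median log2 ratio of the light chain segments was -0.08, and that of all genes 0.13, so the segments moved apart without a common direction. Igkv1-117 held 46014 CPM in the TG library and 50220 CPM in the WT library, Igkv1-110 held 39491 and 13777 CPM, and Igkv4-59 held 6590 and 41868 CPM. Igkv4-79 had 24 UMIs (1.07 CPM) in the TG library and 86733 UMIs (3207 CPM) in the WT library.

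Other genes of the antibody pathway were read in these barcodes. Jchain, which joins IgA dimers, stood at 54151 CPM in the TG library and 54106 CPM in the WT library. Igha stood at 53346 and 37838 CPM, Igkc at 35297 and 27939 CPM, and Iglc1 at 2583 and 1713 CPM. Ighg2c, an IgG constant gene, stood at 1131 CPM in the TG library and 3.66 CPM in the WT library, and led 17 and 0 barcodes with a leading light chain share of at least 80%. Igkv1-117 was the light chain leader in 6 of those 17 and Igkv1-110 in 3. The recombinase genes Rag1 and Rag2 and the surrogate light chain gene Igll1 had 0 UMIs in both libraries. Vpreb1, the other surrogate light chain gene, had 8 UMIs in the TG library and 2 in the WT library, and Dntt, which adds bases at the joints, had 3 and 0. Vpreb3 had 2334 and 2098 UMIs, or 104 and 77.6 CPM.

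Most of the leading light chain segments had different first heavy chain partners in the libraries. Among barcodes with a leading light chain share of at least 80%, 795 TG barcodes and 984 WT barcodes also had a heavy chain leader with at least 50% of the heavy chain V UMIs. Igkv1-117 was paired with Ighv1-81 in 106 of 132 TG barcodes (80.3%, 72.5 to 86.7) and with Ighv1-39 in 99 of 143 WT barcodes (69.2%, 61.0 to 76.7). The pair of Igkv1-117 and Ighv1-81 had 2 barcodes in the WT library, and the pair with Ighv1-39 had 0 in the TG library. The near-equal shares of Igkv1-117 at this leading share (16.2% and 14.4%) were thus made of different pairs.

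Igkv4-59 was paired with Ighv1-64 in 167 of 179 WT barcodes (93.3%), while its 18 TG barcodes were spread over 6 heavy segments with Ighv1-26 in 6. Igkv1-110 was paired with Ighv1-81 in 55 of 96 TG barcodes and with Ighv1-50 in 19 of 35 WT barcodes. Igkv2-137 was paired with Ighv6-6 in 20 of 27 TG barcodes, and Igkv16-104 with Ighv1-19 in 19 of 22 TG barcodes. In the WT library Igkv4-61 was paired with Ighv1-75 in 52 of 53 barcodes, Igkv10-94 with Ighv1-19 in 34 of 40 and Igkv8-19 with Ighv1-72 in 31 of 41.

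Iglv1 was the exception among the most used segments, in that Ighv1-26 was its first partner in both libraries. That pair held 11 of 52 TG barcodes (21.2%, 11.1 to 34.7) and 30 of 54 WT barcodes (55.6%, 41.4 to 69.1). Over all pairs there were 243 in the TG library and 231 in the WT library, of which 32 were seen in both. Pairs with at least 10 barcodes numbered 9 in the TG library and 15 in the WT library and held 32.6% and 55.7% of barcodes. Of these, 2 in each library were seen in the other library at all. The usage in common was 6.98% over pairs, against 56.7% over light chain segments alone. Pairs split the barcodes over 243 (TG) and 231 (WT) categories, against 63 and 65 leading segments. Such a split by itself lowers this measure, and its part in the lower value was not tested. By the Simpson index the pairs equalled 37.1 (TG) and 21.0 (WT) equally used pairs. Joining sequences were not read in these tables, so barcodes of 1 pair cannot be told apart into clones.

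**Figure D4:**
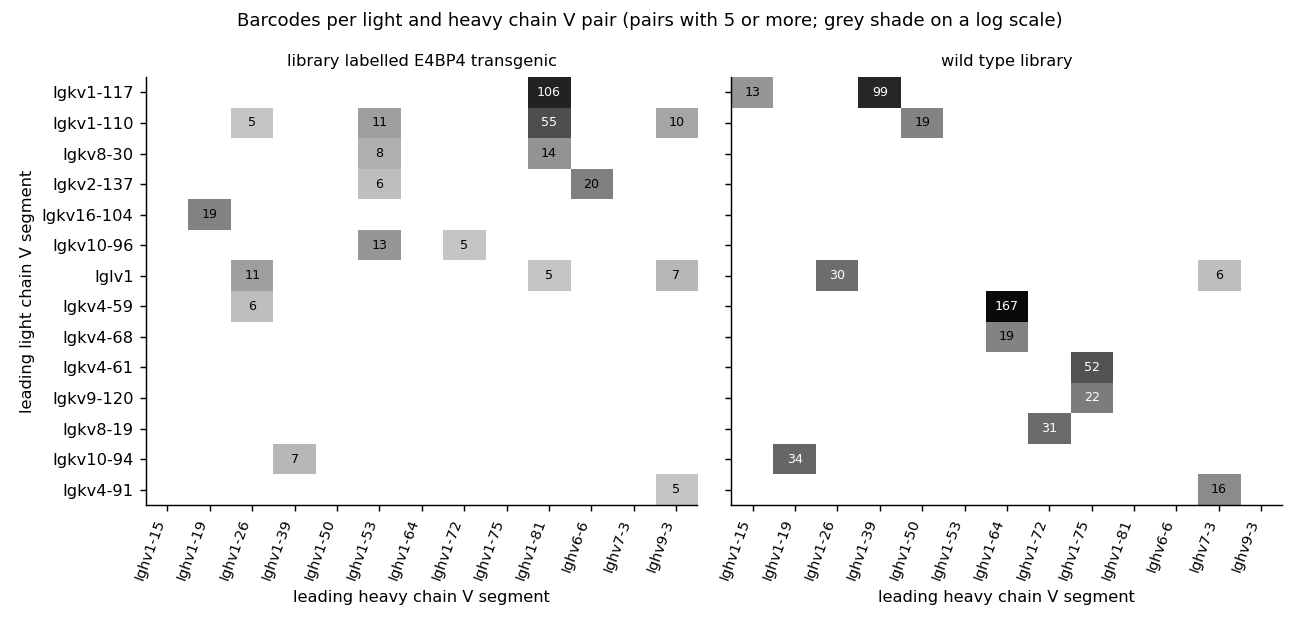
Barcodes per pair of leading light chain V segment (rows) and leading heavy chain V segment (columns) in the TG library (left) and the WT library (right), for pairs with 5 or more barcodes and a leading light chain share of at least 80%. The 2 darkest cells of each panel, Igkv1-117 with Ighv1-81 (106) and Igkv1-110 with Ighv1-81 (55) in the TG library, and Igkv4-59 with Ighv1-64 (167) and Igkv1-117 with Ighv1-39 (99) in the WT library, stand in different places.

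Some barcodes held a second segment. A second segment took at least 20% of segment UMIs in 133 TG barcodes (9.84%) and 104 WT barcodes (7.75%) when low-share barcodes were included. Of these pairs, 115 and 79 were of 2 kappa segments, 17 and 18 of kappa and lambda, and 1 and 7 of 2 lambda segments. Their medians of 38326 (TG) and 35804 (WT) UMIs and 3091 and 3186 genes exceeded those of barcodes with a leading share of at least 80% (21121 and 23745 UMIs, 2297 and 2333 genes). A heavy chain leader under 80% was found in 83 of 133 and 46 of 104. Capture of more than 1 cell and more than 1 productive light chain cannot be told apart here.

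Among barcodes with a leading share of at least 80%, few UMIs fell on the near-identical partner of the leader. This limit itself caps the partner's share and leaves out barcodes whose UMIs were split between such segments. The low shares below therefore cannot show how well these segments are told apart. In Igkv1-117-led barcodes, Igkv1-110 took 0.249% of segment UMIs in the TG library and 0.0905% in the WT library. In Igkv1-110-led barcodes Igkv1-117 took 0.173% and 0.540%. Iglv2 took 0.483% of the UMIs of Iglv1-led TG barcodes and 0.0219% of those of WT barcodes. Iglv1 took 1.02% and 1.40% in Iglv2-led barcodes (8 TG, 4 WT). Among barcodes with a second segment of at least 20%, 8 in each library paired segments at least 95% identical. The authors' handling of reads shared by such segments is not given in the sources used here. UMIs of segments at least 95% identical therefore stay uncertain, by an amount that was not measured.

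Position in the kappa locus was compared over the 100 kappa V genes annotated as functional, by distance from Igkj1. The 34 nearest, 18.4 to 822 kb away, led 20.5% of kappa-led TG barcodes and 17.97% of WT barcodes with a leading share of at least 80%. The 33 in the middle, 864 to 1887 kb away, led 18.2% and 41.0%, with Igkv4-59 and Igkv4-61 among them. The 33 farthest led 61.3% and 41.1%, with Igkv1-117 and Igkv1-110 among them. In deposited cluster 0 the 3 stretches led 32.0%, 15.0% and 52.9% of kappa-led TG cells and 30.9%, 17.3% and 51.8% of WT cells with at least 10 UMIs on the leader.

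Cluster 0 of the deposited metadata, the cluster with the highest summed B cell marker level, held 2236 TG cells and 2410 WT cells. Its cells had few immunoglobulin UMIs, at most 8.31% (TG) and 7.36% (WT) of a cell's total. A cell carried a mean of 32.2 (TG) and 33.5 (WT) segment UMIs, against 16.6 and 15.9 in clusters without B cell marker levels, at median depths of 2235 and 2445 UMIs against 2938 and 3529. A segment reached 10 UMIs in 61.9% (TG) and 66.3% (WT) of cluster 0 cells and in 7.78% and 6.31% of the other cells, so usage in cluster 0 is given at that minimum. Of the barcodes that met the rule, 41 TG and 29 WT cells were in cluster 0.

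At 10 UMIs, 1369 TG cells and 1582 WT cells had a single leader. The leader held a median of 51.2% (TG) and 53.3% (WT) of a cell's segment UMIs, and at least 80% in only 46 and 76 cells. Igkv1-117 led 10.8% of TG cells and 9.42% of WT cells (ratio 1.15, 0.908 to 1.45), Igkv10-96 led 7.30% and 6.38% (1.14, 0.859 to 1.52) and Igkv1-110 led 6.36% and 4.99% (1.27, 0.928 to 1.75). Igkv6-15 led 4.24% and 4.11%, and the further Igkv1 segment led 3.73% and 4.30%. Igkv6-17 led 4.38% of TG cells and 2.91% of WT cells, a ratio of 1.51 (1.01 to 2.26). In clusters without B cell marker levels, it led 5.33% (TG) and 0.439% (WT) of cells with at least 3 UMIs on a leader. At 10 UMIs it led 1.17% and 0.873% there (4 and 2 cells). Igkv1-117 reached 10 UMIs in 4.93% (TG) and 2.90% (WT) of all cells of those clusters and Igkv1-110 in 1.04% and 0.246%. The part of free RNA in the leads of these segments was not tested. Igkv10-96 reached 10 UMIs in 0.113% and 0.0819% of those cells, far below its 4.87% and 4.44% of all cluster 0 cells.

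Igkv4-59 was scarce in cluster 0 of both libraries and lower there in the TG library. It reached 10 UMIs in 0.224% of cluster 0 cells in the TG library and 1.74% in the WT library, against 0% and 0.738% of cells without B cell marker levels. Those cells held a mean of 0.142 (TG) and 1.98 (WT) Igkv4-59 UMIs. The part of free RNA in the cluster 0 difference was not tested. Lambda led 4.53% of TG cells (3.49 to 5.77) and 5.75% of WT cells (4.66 to 7.02) of cluster 0, a ratio of 0.787 (0.561 to 1.099). The Simpson index was 3.66% in the TG library and 3.18% in the WT library, equal to 27.3 and 31.4 equally used segments, against 17.4 and 14.3 in immunoglobulin-rich barcodes of at least 80% leading share. Usage in common between the libraries was 87.9% in cluster 0, against 56.7% in those barcodes. Leaders in cluster 0 mostly held smaller shares of segment UMIs than leaders in those barcodes, and the part of this in the comparison was not tested.

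**Figure D5:**
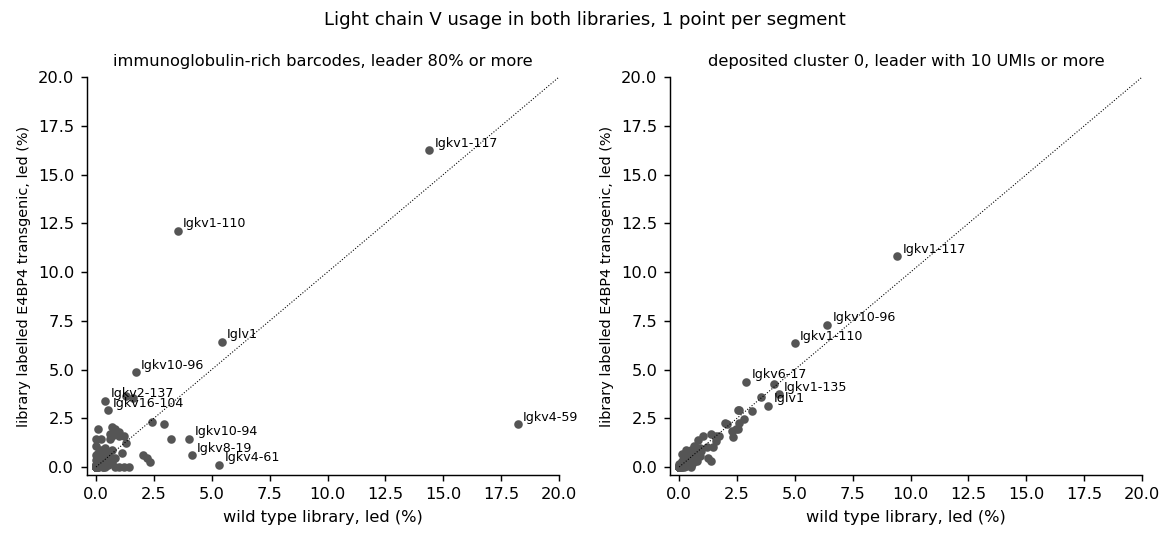
Percent of barcodes led by each segment in the TG library (vertical axis) and the WT library (horizontal axis), in immunoglobulin-rich barcodes with a leading share of at least 80% (left) and in cluster 0 cells with at least 10 UMIs on the leader (right). The dotted line marks equal shares; the usage in common is 56.7% on the left and 87.9% on the right.

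Kappa-led cells of cluster 0 also held lambda constant transcripts. They averaged 5.93 Igkc and 6.51 Iglc UMIs per cell in the TG library (1307 cells) and 4.67 and 6.66 in the WT library (1491 cells). Lambda-led cells averaged 3.03 Igkc and 5.74 Iglc UMIs in the TG library (62 cells) and 2.24 and 6.77 in the WT library (91 cells), and their Iglc level was thus close to that of kappa-led cells. Cells without B cell marker levels averaged 2.42 Igkc and 0.704 Iglc UMIs in the TG library and 1.55 and 0.484 in the WT library. Most Iglc UMIs of the kappa-led cells lay on Iglc2 and Iglc3 (4341 and 3474 of 8508 in the TG library, 4986 and 4263 of 9936 in the WT library). In kappa-led immunoglobulin-rich barcodes Iglc2 held 3.93% (TG) and 4.56% (WT) of light chain constant UMIs. Whether these transcripts hold a joined V segment was not tested.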

How the data were processed

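Single-cell libraries were prepared with 10x Genomics 5' v1.1 chemistry, per the labels' protocols. Raw UMI counts for each gene and barcode were deposited by the authors. Cell Ranger 5.0.0, Seurat 4.0 and mm10 are listed in the submitters' processing notes, with no role given. A deposited table of cells has columns, per the file headers, for the percent of UMIs on immunoglobulin and mitochondrial genes and for cluster numbers, and gene symbols come from deposited features tables. How the authors chose the cells in the metadata is not stated; UMI totals there differed from the count tables by a median of 1.

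Leading segments were taken per barcode, with ties left unassigned. Libraries were compared as shares of barcodes with exact Clopper-Pearson intervals, as ratios with exact conditional intervals, by the Simpson index and as summed CPM (at least 50 UMIs over both libraries). A share counted as different at 1.5-fold among segments leading at least 20 barcodes, and CPM at 2-fold. All intervals cover counting error only, and a floor of 3 counts is not an interval limit. No test was made, because each genotype had 1 library. Doublets were not called; barcodes with a leading share of at least 80% and those with a second segment of at least 20% are given instead. Clusters 0 and 7 had summed B cell markers (without Cd74) of at least 50% of the highest level and the other 8 served as the background for free RNA.

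Members and lists were chosen with earlier results of these data known. Named segments were the 12 with the highest mean share, every Iglv segment, up to 6 each way past 1.5-fold with the interval bound farthest from 1, and the 6 that led most cluster 0 cells; others named were picked after seeing their values. Coordinates and coding sequences were matched by identifier to GENCODE vM21 (GRCm38). The procedure was tested on simulated data. Python 3.11.15, numpy 2.4.6, scipy 1.17.1, pandas 2.3.3, Biopython 1.88 and matplotlib 3.10.9 were used.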

Additional observations from a re-analysis of the deposited data

How the results depend on the processing

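No paired analysis was possible because each genotype had 1 library, and no replicate could be left out. The Simpson ratio over all barcodes, 1.26 (TG over WT), turned below 1 with an immunoglobulin share of 10% or more (0.963) or 30% or more (0.779), with 100 or more segment UMIs (0.846), and with a leading share of at least 50% (0.857) or 80% (0.822). It was 1.57 under the limit of 2200 genes. The 20 of 31 segments at least 1.5-fold apart became 9 under that limit and 6 over subgroups. The segments or subgroups that led at least 20 barcodes were counted anew each time. These counts therefore do not share the total of 31, and a lower count is not by itself a lower share. The lambda ratio ran between 0.837 and 1.25. In cluster 0 the Simpson ratio of 1.06 at 3 UMIs became 0.967 in the matching cluster of resolution 0.5, and a lambda ratio at a leading share of 80% gave no value. For Igkv6-15 the ratio of 1.63 turned to 0.873 under the gene limit; the cause was not tested. For 20 named segments, 185 of 200 ratios stayed within the 95% interval of the main ratio, 14 moved outside it and 1 reversed. Where no interval could be formed, a limit of 1.5-fold was used. A ratio could cross 1 within that interval, as for Iglv1 (0.889, and 1.18 at a leading share of at least 80%). Igkv1-117, at 1.39, ran down to 1.01 by UMIs. Merging segments at least 95% identical and leaving out barcodes found in both libraries were added after seeing the data, and gave Simpson ratios of 1.41 and 1.27. Depth limits the RNA-poor barcodes, with medians of 33 (TG) and 32 (WT) segment UMIs.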
